A study of Rattus norvegicus with 5 samples.

Results

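Neuropeptide precursors and granins are the cargo of dense-core vesicles. A list of 37 such rat genes was followed in single-nucleus RNA sequencing of the ventral tegmental area (VTA), the midbrain region that holds the dopamine neurons of the mesolimbic system. The list is given by gene name, with no threshold on a measured value, and was drawn up with earlier results of these data known. Its members were looked up by gene symbol in the 5 libraries. Of the 37 genes, 35 were found among the 32883 genes of the count tables, and Cort and Pthlh were not analysed here. The study concerned the peptide GLP-1 and its action on VTA neurons, and nuclei were sequenced to look at which VTA cells express the receptor of this peptide. The 5 libraries formed 1 group, labelled saline, with no other condition, so each comparison below is between kinds of nuclei of the same rats. The paper calls the animals drug-naïve, and what the saline of the labels consisted of is not given in the sources used here. Per the study's methods the animals were 5 adult male Sprague-Dawley rats with no transgene or allele named. The frozen punches from both sides of the VTA were combined, and each library was taken as 1 rat, so neighbouring nuclei within the punch could be included.

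A neuropeptide is made as a longer precursor, cut and amidated inside the vesicle, and released more slowly and at higher firing rates than a small transmitter of the same neuron. Granins are acidic proteins that help to load and form these vesicles, and some are themselves cut to active peptides. In the VTA, cholecystokinin and neurotensin are the classic peptides of dopamine neurons, whereas inhibitory and glutamate neurons carry other sets.

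The libraries held 10193355 to 88576210 UMIs (unique molecular identifiers, 1 per captured transcript). The rule of at least 1000 UMIs, 201 to 4999 genes and under 5% mitochondrial UMIs kept 22084 barcodes, and 1068 of these were then removed as likely doublets. Clusters named from marker genes gave 5527 neurons and 11316 non-neuronal nuclei, of which 8602 were oligodendrocytes. The 4173 nuclei whose clusters met no naming rule were left out of these groups. The neurons divided into 952 dopaminergic-like, 2158 GABAergic-like, 496 Slc17a6 and 164 serotonergic-like nuclei and 1757 unnamed ones. Of the unnamed, 606 (11.0% of neurons, 453 of them from rat 3) were in 4 sub-clusters that also carried markers of oligodendrocytes, astrocytes or microglia. They were counted as neurons below. Slc17a6 neurons are called by their vesicular glutamate transporter gene, since too few specific markers were at hand to name a class. The classes were named from levels of dopamine, GABA and glutamate genes, so the levels of such markers are no separate check of the names. Th was at 6.01 ± 0.81 UMIs per 10000 (SD, n = 4 rats) in dopaminergic-like neurons and Gad2 at 2.81 ± 0.74 (SD, n = 5) in GABAergic-like neurons. The same genes were at 0.973 and 0.459 UMIs per 10000 in oligodendrocytes, which should lack both. Rat 3 stood apart, since 1936 of its 2242 kept nuclei were neurons, with a median depth of 1686.5 UMIs where the other 4 rats had 7052 to 9533.5. It gave 0 oligodendrocyte precursor cells (OPCs), 0 astrocytes and 1222 of the unnamed neurons. Rat 1 gave 5 dopaminergic-like nuclei, and its sums were kept in the fits, while class means below use rats with at least 20 nuclei of the class. The libraries shared 50 barcode sequences. Free RNA, read from droplets of 1 to 99 UMIs, was estimated to make up 10.52% to 33.2% of the UMIs of non-neuronal nuclei, the share a nucleus can pick up from its surroundings.

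The short sequences that follow show the one promoter feature searched for among the members, the cyclic AMP response element TGACGTCA, a palindrome that reads the same on both strands and through which activity is known to drive several peptide genes. In windows from 250 bases before to 50 bases after the start site (RefSeq, build GRCr8), 27 of the 35 members had an entry and 5 of the 27 (18.5%) held the element, as did 612 of all 33469 windows (1.83%). The gene list was drawn up with results of these data known, and no test was made of this share. A match is a run of letters and not a measured site. The element is in capitals with 10 bases on each side, read on the strand of the gene.
Scg2, chr9:88256972-88256999, minus strand, 123 bases before the start: gctgagccggTGACGTCAgcgaggaatg
Vgf, chr12:25277093-25277120, minus strand, 90 bases before the start: gaatgaacatTGACGTCAatggggcggg
Sst, chr11:90461538-90461565, plus strand, 2 bases after the start: cctccttggcTGACGTCAgagagagagt
Cartpt, chr2:32991360-32991387, minus strand, 142 bases before the start: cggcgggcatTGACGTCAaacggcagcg
Ucn, chr6:30957966-30957993, plus strand, 110 bases before the start: agttcttcgcTGACGTCAgtcggagctg
In neurons Scg2 gave 7977 UMIs, Vgf 846, Sst 477, Cartpt 41 and Ucn 11. These counts do not allow the levels of different genes to be compared.

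The first comparison asked which members belong to neurons at all. Summed counts of neurons were set against those of non-neuronal nuclei of the same rat, and 18 of the 35 members passed the filter on low counts. Of these 18, 11 were higher in neurons at an adjusted p under 0.05 in edgeR's quasi-likelihood test and 0 were lower. The 0 held at an unadjusted p under 0.05 as well, and DESeq2 called 10 higher and 0 lower. Without the 606 nuclei with glial markers, edgeR called 12 higher, the same 11 and Scg3 (adjusted p = 0.0450), and 0 lower. Over all 13928 genes tested 34.3% were higher and 34.4% lower. The median log2 difference was 0.75 over the 18 members and -0.03 over all genes.

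Among the granins, 5 of 6 were higher in neurons, and 2 (Chga and Scg2) when likely doublets were kept. Chgb, Scg5 and Vgf lost their calls there, at adjusted p = 0.117, 0.0820 and 0.326. Chga, chromogranin A, a core protein of the vesicle, was at 1.18, 1.60, 0.517, 0.842 and 1.12 UMIs per 10000 in the neurons of rats 1 to 5 and at 0.564, 0.828, 0.119, 0.331 and 0.442 in their non-neuronal nuclei. Each rat's neurons exceeded its own non-neuronal nuclei, although the ranges of the groups overlapped, and the log2 difference was 1.12 ± 0.12 (SE, adjusted p = 1.11e-05). Scg2, secretogranin II, the precursor of secretoneurin, was at 3.12, 3.79, 1.45, 1.17 and 1.65 UMIs per 10000 in neurons against 1.61, 2.33, 0.427, 0.562 and 0.893, a log2 difference of 0.89 ± 0.12. Chgb, chromogranin B, was at 2.33, 2.53, 1.09, 1.41 and 1.76 UMIs per 10000 against 1.19, 1.90, 0.285, 0.692 and 1.11, a log2 difference of 0.76 ± 0.15. In both genes the rat with the lowest neuronal level lay below the highest non-neuronal one, so that the difference stood within rats and not between the ranges. Scg5, the chaperone of the convertase PC2, differed by 0.73 ± 0.16 and Vgf, a growth factor-induced granin, by 0.56 ± 0.13 on the log2 scale. Scg3, secretogranin III, which binds chromogranin A, was 0.28 ± 0.12 higher on the log2 scale and did not pass (adjusted p = 0.0513).

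Among the peptide precursors, 5 of the 11 tested were higher in neurons. Nmu, the precursor of neuromedin U, was at 0.0852, 0.108, 0.141, 0.202 and 0.356 UMIs per 10000 in the neurons of rats 1 to 5 and at 0.00515, 0.00720, 0, 0.0121 and 0.0150 in non-neuronal nuclei. The lowest neuronal value lay far above the highest non-neuronal one, and the log2 difference of 4.06 ± 0.22 (adjusted p = 1.11e-07) was the highest among the tested members. Adcyap1, which encodes PACAP, was at 0.458, 0.175, 0.169, 0.314 and 0.263 UMIs per 10000 in neurons against 0.108, 0.0540, 0.0237, 0.0525 and 0.0573, again with no overlap, a log2 difference of 2.05 ± 0.16 (adjusted p = 1.64e-06).
Nucb2, the precursor of nesfatin, was at 0.426, 0.278, 0.205, 0.285 and 0.313 UMIs per 10000 in neurons against 0.167, 0.205, 0.119, 0.118 and 0.154, a log2 difference of 0.86 ± 0.15. The lowest neuronal and the highest non-neuronal value of Nucb2 were almost equal. Tac1, the precursor of substance P, was at 0.586, 0.422, 0.0921, 0.241 and 0.250 UMIs per 10000 in neurons against 0.206, 0.243, 0, 0.127 and 0.117, a log2 difference of 0.96 ± 0.17. Its groups overlapped, and rat 3 was lowest in both.
Vip, the vasoactive intestinal peptide gene, was 0.89 ± 0.33 higher on the log2 scale (adjusted p = 0.0347) and was higher in 4 of 5 rats. Its call was lost without rat 3, rat 4 or rat 5, at adjusted p = 0.0604, 0.138 and 0.362, and its direction turned (-0.50, adjusted p = 0.152) when nuclei were typed one by one from their own markers.

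Crhbp, the binding protein that takes up corticotropin-releasing hormone, was higher in neurons as well. It was at 0.0852, 0.0630, 0.0205, 0.0581 and 0.0465 UMIs per 10000 in neurons against 0.0180, 0.0166, 0, 0.00566 and 0.00819, with no overlap and a log2 difference of 2.34 ± 0.29 (adjusted p = 4.19e-05). The groups failed to overlap in 4 of the 18 members tested, namely Nmu, Adcyap1, Crhbp and Nucb2, each with the higher values in neurons, where 17.8% of all genes tested failed to overlap in that direction and 12.1% in the other. The 34.3% above is of genes called by edgeR, which is another quantity.

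The other 6 peptide precursors tested did not pass in either direction, with adjusted p from 0.107 to 0.989. They included Cck, the cholecystokinin gene, at 0.554, 1.04, 0.110, 0.342 and 0.670 UMIs per 10000 in neurons against 0.464, 1.65, 0.0237, 0.340 and 0.927 in non-neuronal nuclei. Rats 2 and 5 had more Cck in non-neuronal nuclei and the other 3 rats in neurons, with a log2 difference of -0.33 ± 0.17. Nts, the neurotensin gene, differed by 0.27 ± 0.20, Grp, gastrin-releasing peptide, by 0.14 ± 0.34, Pomc, the precursor of melanocortins and beta-endorphin, by 0.09 ± 0.40 and Sst, somatostatin, by -0.06 ± 0.15 on the log2 scale. The last of the 6 was Nppc, the C-type natriuretic peptide gene, at a log2 difference of 0.21.

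**Figure D1:**
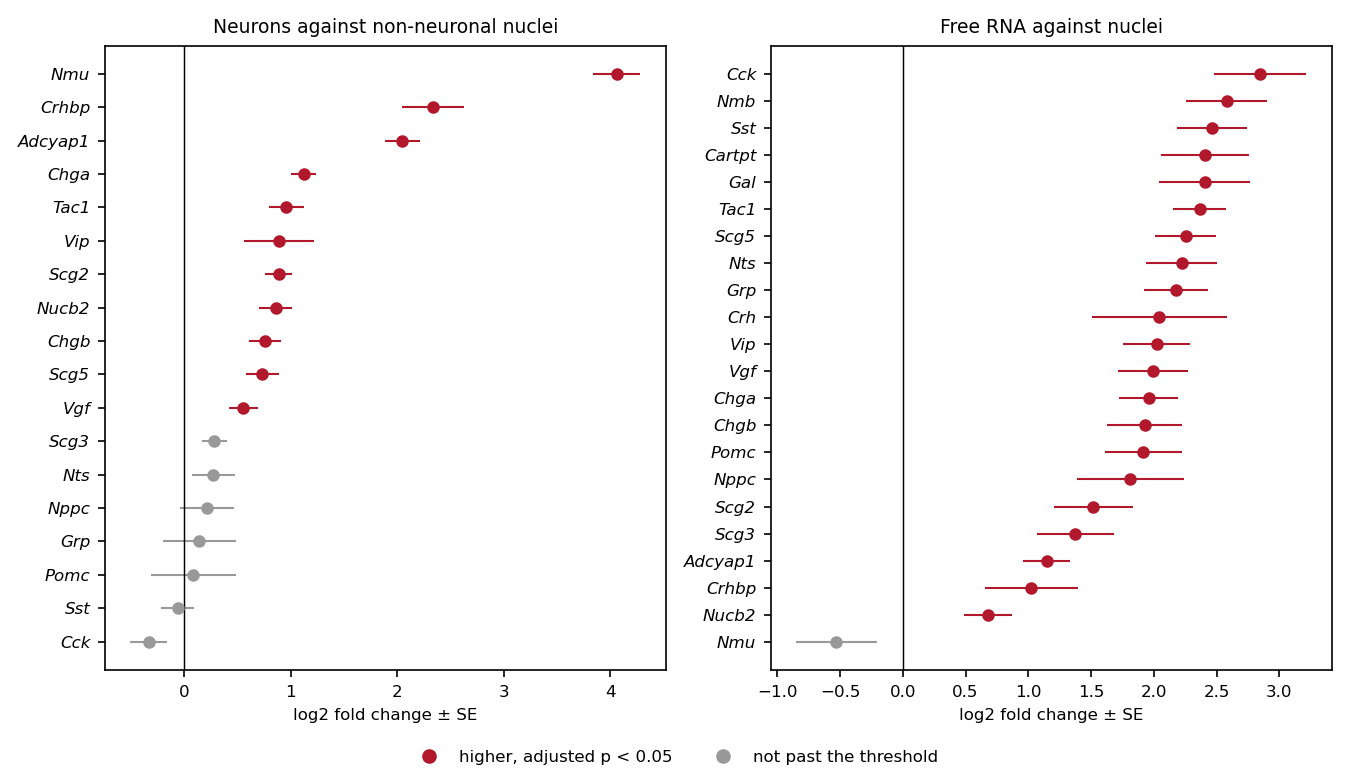
Log2 fold change ± SE of each tested member in neurons against non-neuronal nuclei (left) and in free RNA against nuclei (right), from edgeR over 5 rats, with red points past an adjusted p of 0.05 and grey points not past it. Nmu has the highest value on the left (4.06) and the lowest on the right (-0.53), whereas Cck has the lowest on the left (-0.33) and the highest on the right (2.85), and for Nppc on the left the p, which edgeR raises to that of counting error, is larger than its bar implies.

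Free RNA measured in the same libraries set the background for these levels. Droplets of 1 to 99 UMIs were compared with the sum of all kept nuclei. This sum included the 4173 nuclei left out of the named groups, 1096 of them from rat 1 and 2366 from rat 2. The nuclear levels below are therefore not those of the named nuclei alone. Of the 22 members tested, 21 were higher in free RNA, at a median log2 difference of 2.01. Over all 12840 genes 30.6% were higher and 30.6% lower, at a median of -0.05. Cck was at 4.10, 7.24, 1.78, 3.34 and 6.24 UMIs per 10000 in the free RNA of rats 1 to 5 against 1.31, 1.96, 0.101, 0.371 and 0.961 in nuclei, a log2 difference of 2.85 ± 0.37 (adjusted p = 0.000299). Each rat had more Cck in free RNA, but the lowest free value lay below the highest nuclear one.
Nmb, neuromedin B, a member of the bombesin family, was at 0.0822, 0.111, 0.0391, 0.141 and 0.113 UMIs per 10000 in free RNA against 0.0213, 0.0290, 0.00920, 0.0129 and 0.0184, a log2 difference of 2.58 ± 0.32. Sst was at 0.945, 0.744, 0.611, 0.695 and 1.25 UMIs per 10000 in free RNA against 0.344, 0.241, 0.0943, 0.0956 and 0.169, a log2 difference of 2.46 ± 0.28. Neither gene's groups overlapped.
Cartpt, the CART peptide gene, was at 0.808 UMIs per 10000 in the free RNA of rat 1 and at 0.0244 to 0.0760 in that of the other 4 rats, against 0.00690 to 0.0853 in nuclei, a log2 difference of 2.41 ± 0.35. Gal, galanin, was at 0.0582, 0.233, 0.0782, 0.0434 and 0.0657 UMIs per 10000 in free RNA against 0.0156, 0.0728, 0.00460, 0.00647 and 0.0171, also a log2 difference of 2.41 ± 0.36. Single rats stood high in both genes, rat 1 for Cartpt and rat 2 for Gal.
Tac1 was at 1.63, 1.04, 0.503, 1.29 and 0.873 UMIs per 10000 in free RNA against 0.426, 0.353, 0.0828, 0.182 and 0.198, a log2 difference of 2.37 ± 0.21. Nts was at 0.637, 0.466, 0.269, 0.532 and 0.282 UMIs per 10000 against 0.233, 0.163, 0.0276, 0.0767 and 0.0886, a log2 difference of 2.22 ± 0.29. Scg5 was at 12.3, 11.1, 3.46, 7.48 and 9.34 UMIs per 10000 against 3.75, 3.71, 0.713, 1.24 and 2.01, a log2 difference of 2.25 ± 0.24. Groups did not overlap for Tac1 or Nts and overlapped for Scg5. In all, 10 of the 22 members had free values above every nuclear value, as did 9.36% of all genes tested, while 17.4% lay lower without overlap.
The other 13 members called were Grp, Crh, Vip, Vgf, Chga, Chgb, Pomc, Nppc, Scg2, Scg3, Adcyap1, Crhbp and Nucb2, from 2.18 for Grp to 0.68 for Nucb2 on the log2 scale. Crhbp was higher in the free RNA of 3 of 5 rats, and Nucb2 in that of 5. The calls of Crhbp and Nucb2 were lost without rat 5, at adjusted p = 0.139 and 0.0624. Nmu alone did not pass (-0.53 ± 0.32, adjusted p = 0.173). It was at 0.0240, 0.0333, 0.0489, 0.0977 and 0.0563 UMIs per 10000 in free RNA against 0.0227, 0.0509, 0.126, 0.0877 and 0.175 in nuclei, higher in the nuclei of 3 of 5 rats.

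The free RNA fraction was estimated once per rat, from non-neuronal nuclei, and not for any neuron class. Carried over to the neuron classes, whose nuclei were deeper, it was used to subtract the UMIs that each library's free RNA would contribute. This left 95.3% of the Nmu UMIs of GABAergic-like neurons and 89.4% of the Adcyap1 UMIs of Slc17a6 neurons. It left 63.2% of the Tac1 UMIs of Slc17a6 neurons and 28.5% of those of GABAergic-like neurons. Of Cck it left 7.91% in dopaminergic-like neurons and 0% in GABAergic-like and Slc17a6 neurons, and of Sst it left 0.704% in GABAergic-like neurons. For Sst and Cck the subtraction also took out UMIs that were gathered in few nuclei. It left 2 of the 284 Sst UMIs of GABAergic-like neurons, of which 101 lay in 21 nuclei with 3 or more, and 77 of the 973 Cck UMIs of dopaminergic-like neurons, of which 566 lay in 132 such nuclei. The parts left are therefore not measures of how much peptide RNA the nuclei held.

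The members with enough counts were next compared between neuron classes. In the dopaminergic-like, GABAergic-like and Slc17a6 neurons of the same rats, each class was compared with the mean of the other 2. The fit was on the log scale, and 13 members passed the filter (the 6 granins and 7 peptide precursors). The rat values given for the other classes are plain means of their 2 levels. Counts of rats and overlap use these plain means, which need not give the log2 difference printed beside them. The comparisons share the same class levels, so a class that stands apart shifts the differences of the other 2 the opposite way. Calls of the same gene in different classes are therefore not separate results. Members were left out when the neurons were clustered, so that no class was defined by a member. Peptide genes outside the list, such as Penk, stayed in.

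In dopaminergic-like neurons 3 of 13 members were higher and 3 lower, where 9.54% and 8.15% of all 11059 genes were. The median over the members was -0.21 against 0.00 over all genes. Cck was at 3.83, 2.26, 0.329, 0.879 and 1.37 UMIs per 10000 in the dopaminergic-like neurons of rats 1 to 5, the first of these from 5 nuclei, against means of 0.298, 0.794, 0.0100, 0.137 and 0.360 in the other classes. All 5 rats had more Cck in dopaminergic-like neurons, and the ranges overlapped through rat 3, whose neurons were low in both groups. The log2 difference was 2.05 ± 0.17 (adjusted p = 1.55e-09), whereas the level of 1.21 ± 0.82 (SD, n = 4 rats) stood beside 0.647 ± 0.58 (SD, n = 5) in oligodendrocytes and 4.54 ± 2.20 in free RNA.
Nts was at 0, 0.156, 0.0299, 0.157 and 0.195 UMIs per 10000 against 0.0789, 0.132, 0.0200, 0.0414 and 0.0610, a log2 difference of 1.16 ± 0.34 (adjusted p = 0.0181), higher in 4 of 5 rats. Nucb2 was at 1.04, 0.380, 0.269, 0.361 and 0.462 UMIs per 10000 against 0.352, 0.287, 0.167, 0.293 and 0.233, higher in 5 of 5 rats, a log2 difference of 0.60 ± 0.15. Both calls were lost without rat 5, at adjusted p = 0.182 for Nts and 0.112 for Nucb2.
Tac1 was nearly missing from dopaminergic-like neurons, at 0, 0.0797, 0, 0.0328 and 0.0586 UMIs per 10000 against 0.895, 0.539, 0.0301, 0.441 and 0.583, a log2 difference of -2.98 ± 0.37 (adjusted p = 9.86e-07). Its level of 0.0428 ± 0.03 (SD, n = 4 rats) was below the 0.129 ± 0.09 of oligodendrocytes, where the free RNA background is read. Chga was at 0.348, 0.809, 0.224, 0.453 and 0.540 UMIs per 10000 against 1.23, 2.02, 0.866, 0.924 and 1.49, with no overlap and a log2 difference of -1.25 ± 0.14. Vgf was at 0, 0.205, 0.0299, 0.0984 and 0.124 UMIs per 10000 against 0.374, 0.412, 0.147, 0.165 and 0.247, a log2 difference of -0.97 ± 0.23. The substance P precursor and 2 granins were thus lower in each of the 5 rats. The rat 1 values come from 5 nuclei with 28758 UMIs, so its 0 for Tac1 and Vgf and its 1.04 for Nucb2 rest on few counts. The Tac1 values of rat 3, 0 against 0.0301, do so as well. The 7 members that did not pass (Scg2, Scg3, Scg5, Chgb, Adcyap1, Nmu and Sst) had adjusted p from 0.145 to 0.962.

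In GABAergic-like neurons 3 of 13 members were higher and 3 lower, where 6.29% and 5.90% of all genes were, and the median over the members was 0.16 against 0.02. Chga was at 1.33, 1.88, 0.661, 1.10 and 1.35 UMIs per 10000 in rats 1 to 5 against 0.736, 1.49, 0.648, 0.6 and 1.08, a log2 difference of 0.68 ± 0.12 (adjusted p = 0.000252). Nmu was at 0.158, 0.139, 0.140, 0.254 and 0.474 UMIs per 10000 against 0, 0.0718, 0.186, 0.154 and 0.138, a log2 difference of 1.06 ± 0.21 (adjusted p = 0.000608). Rat 3 was the exception for Nmu, with the lower value in its GABAergic-like neurons.
Vgf was 0.58 ± 0.18 higher on the log2 scale (adjusted p = 0.0398) in 4 of 5 rats, and its call was lost without rat 2, rat 3 or rat 5, at adjusted p = 0.587, 0.0753 and 0.146. The mean levels of Chga and Vgf in GABAergic-like neurons (1.26 and 0.256) were no higher than in Slc17a6 neurons (1.35 and 0.282). Dopaminergic-like neurons were lower (0.506 and 0.114), so neither call sets GABAergic-like apart from Slc17a6 neurons. Adcyap1 was at 0.180, 0.0697, 0, 0.0978 and 0.0890 UMIs per 10000 against 0.362, 0.339, 0.194, 0.556 and 0.524, with no overlap and a log2 difference of -2.19 ± 0.19 (adjusted p = 6.16e-09). Cck was at 0.316, 0.693, 0.0200, 0.137 and 0.427 UMIs per 10000 against 2.05, 1.58, 0.164, 0.508 and 0.831, a log2 difference of -1.07 ± 0.18. Of the 7 peptide precursors tested, 3 were called lower in GABAergic-like neurons, and those of PACAP and cholecystokinin differed most. Precursors that did not pass the filter were not compared.
Nucb2 was at 0.383, 0.232, 0.2, 0.257 and 0.251 UMIs per 10000 against 0.682, 0.361, 0.201, 0.345 and 0.338, a log2 difference of -0.48 ± 0.14 (adjusted p = 0.0259). It was lost without rat 2, rat 4 or rat 5, at adjusted p = 0.239, 0.0896 and 0.128. The mean levels of Cck and Nucb2 in GABAergic-like neurons (0.318 and 0.265) were close to those in Slc17a6 neurons (0.322 and 0.268). Dopaminergic-like neurons were higher (1.21 and 0.368), so the calls of Cck and Nucb2 do not set GABAergic-like apart from Slc17a6 neurons.

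In Slc17a6 neurons 3 of 13 members were higher and 1 lower, where 2.97% of all genes were higher and 2.97% lower, and the median over the members was 0.05 against -0.02. Adcyap1 was at 0.723, 0.527, 0.268, 0.803 and 0.775 UMIs per 10000 in rats 1 to 5 against 0.0902, 0.111, 0.0598, 0.203 and 0.181, with no overlap and a log2 difference of 2.16 ± 0.18 (adjusted p = 1.63e-08). Tac1 was at 1.41, 0.533, 0, 0.734 and 0.935 UMIs per 10000 against 0.192, 0.312, 0.0301, 0.0905 and 0.144, a log2 difference of 2.44 ± 0.29 (adjusted p = 3.62e-06). Rat 3, with 48 Slc17a6 neurons and no Tac1 UMI in them, was the exception among the 5 rats. Over the 74694 UMIs of these nuclei, a 0 read at the floor of 3 counts does not show a level below 0.0301. The direction of Tac1 turned, to a log2 difference of -0.54 (adjusted p = 0.618), when the neurons were clustered on components centred per library. That clustering left 0, 135, 47, 7 and 2 Slc17a6 nuclei in rats 1 to 5, where there had been 25, 237, 48, 142 and 44, so few remained in the rats with the highest Tac1 levels (1, 4 and 5).
Chga was 0.56 ± 0.14 higher on the log2 scale (adjusted p = 0.0113) in 4 of 5 rats, and its call was lost without rat 2 or rat 5, at adjusted p = 0.208 and 0.136. The mean Chga level of Slc17a6 neurons (1.35 ± 0.56, SD) was within 1 SD of that of GABAergic-like neurons (1.26 ± 0.44, SD). Cck was at 0.281, 0.896, 0, 0.137 and 0.294 UMIs per 10000 against 2.07, 1.48, 0.174, 0.508 and 0.897, a log2 difference of -0.98 ± 0.21. The mean Cck levels of GABAergic-like (0.318 ± 0.26, SD) and Slc17a6 neurons (0.322 ± 0.34, SD) were within 1 SD of each other and below that of oligodendrocytes. Rat 3 decided few of these calls, since without it Vip was lost from the neuronal calls and Vgf from the GABAergic-like ones, and the other member calls of the 5 comparisons were kept.

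Non-overlap between the rats' values was rare in the class comparisons, both for the members and for all genes. It was found for 1 of 13 members (Chga, lower) in dopaminergic-like neurons, where 2.29% of all genes lay higher and 3.80% lower without overlap. It was found for 1 (Adcyap1, lower) in GABAergic-like neurons, beside 1.63% higher and 1.93% lower, and for 1 (Adcyap1, higher) in Slc17a6 neurons, beside 0.931% higher and 1.40% lower.

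**Figure D2:**
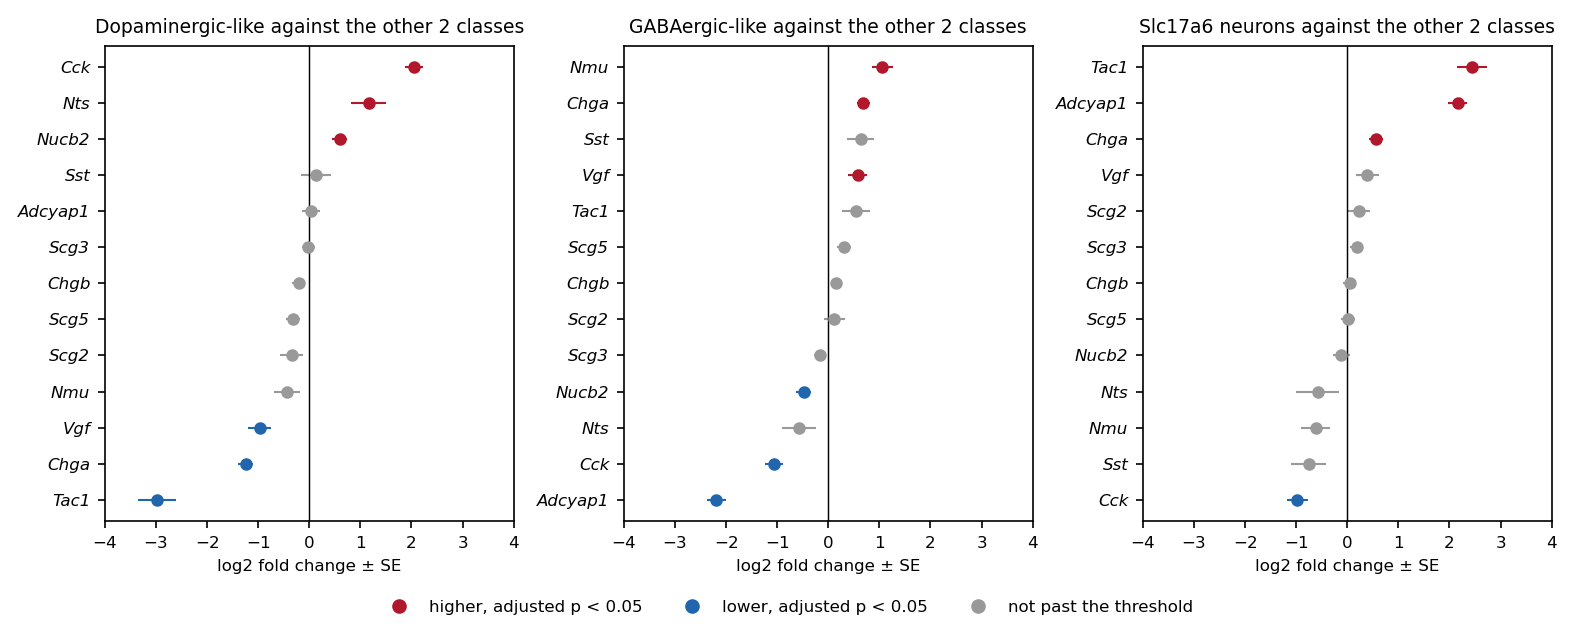
Log2 fold change ± SE of 13 members in dopaminergic-like, GABAergic-like and Slc17a6 neurons, each against the mean of the other 2 classes, from edgeR over 5 rats, with red points higher, blue points lower and grey points not past an adjusted p of 0.05. Cck leads in dopaminergic-like neurons (2.05) where Tac1 is last (-2.98), and Tac1 (2.44) and Adcyap1 (2.16) lead in Slc17a6 neurons.

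No fit was made for the serotonergic-like nuclei, of which the 5 rats gave 2, 45, 77, 22 and 18, and they are described by their levels. Gal was at 0.564, 0.0525 and 0.133 UMIs per 10000 in those of rats 2, 3 and 4, the rats with at least 20 such nuclei. The means of Gal in the other 3 classes were 0.00705 to 0.0102 UMIs per 10000, with 0.0171 ± 0.02 (SD, n = 5) in oligodendrocytes and 0.0957 ± 0.08 in free RNA. These 164 nuclei, 2.97% of neurons, held 28 of the 78 neuronal Gal UMIs (35.9%). The level was highest in rat 2, which also had the highest Gal in free RNA. Rats 2 and 4 exceeded their own free RNA (0.233 and 0.0434), whereas rat 3 lay below its own (0.0782). The 3 nuclei with 3 or more Gal UMIs came from rats 2 and 4 (2 and 1 nuclei), so these levels rest on few nuclei. Chgb was at 2.90 ± 1.24 (SD, n = 3) in serotonergic-like neurons, beside means of 1.36 to 1.75 in the other classes, and Nucb2 at 0.400 ± 0.31, beside 0.265 to 0.368. Nmu was at 0.231 ± 0.06, close to the 0.233 ± 0.14 of GABAergic-like neurons, and Tac1 at 0.409 ± 0.30. The SDs were large beside these differences for Nucb2 and Tac1.

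**Figure D3:**
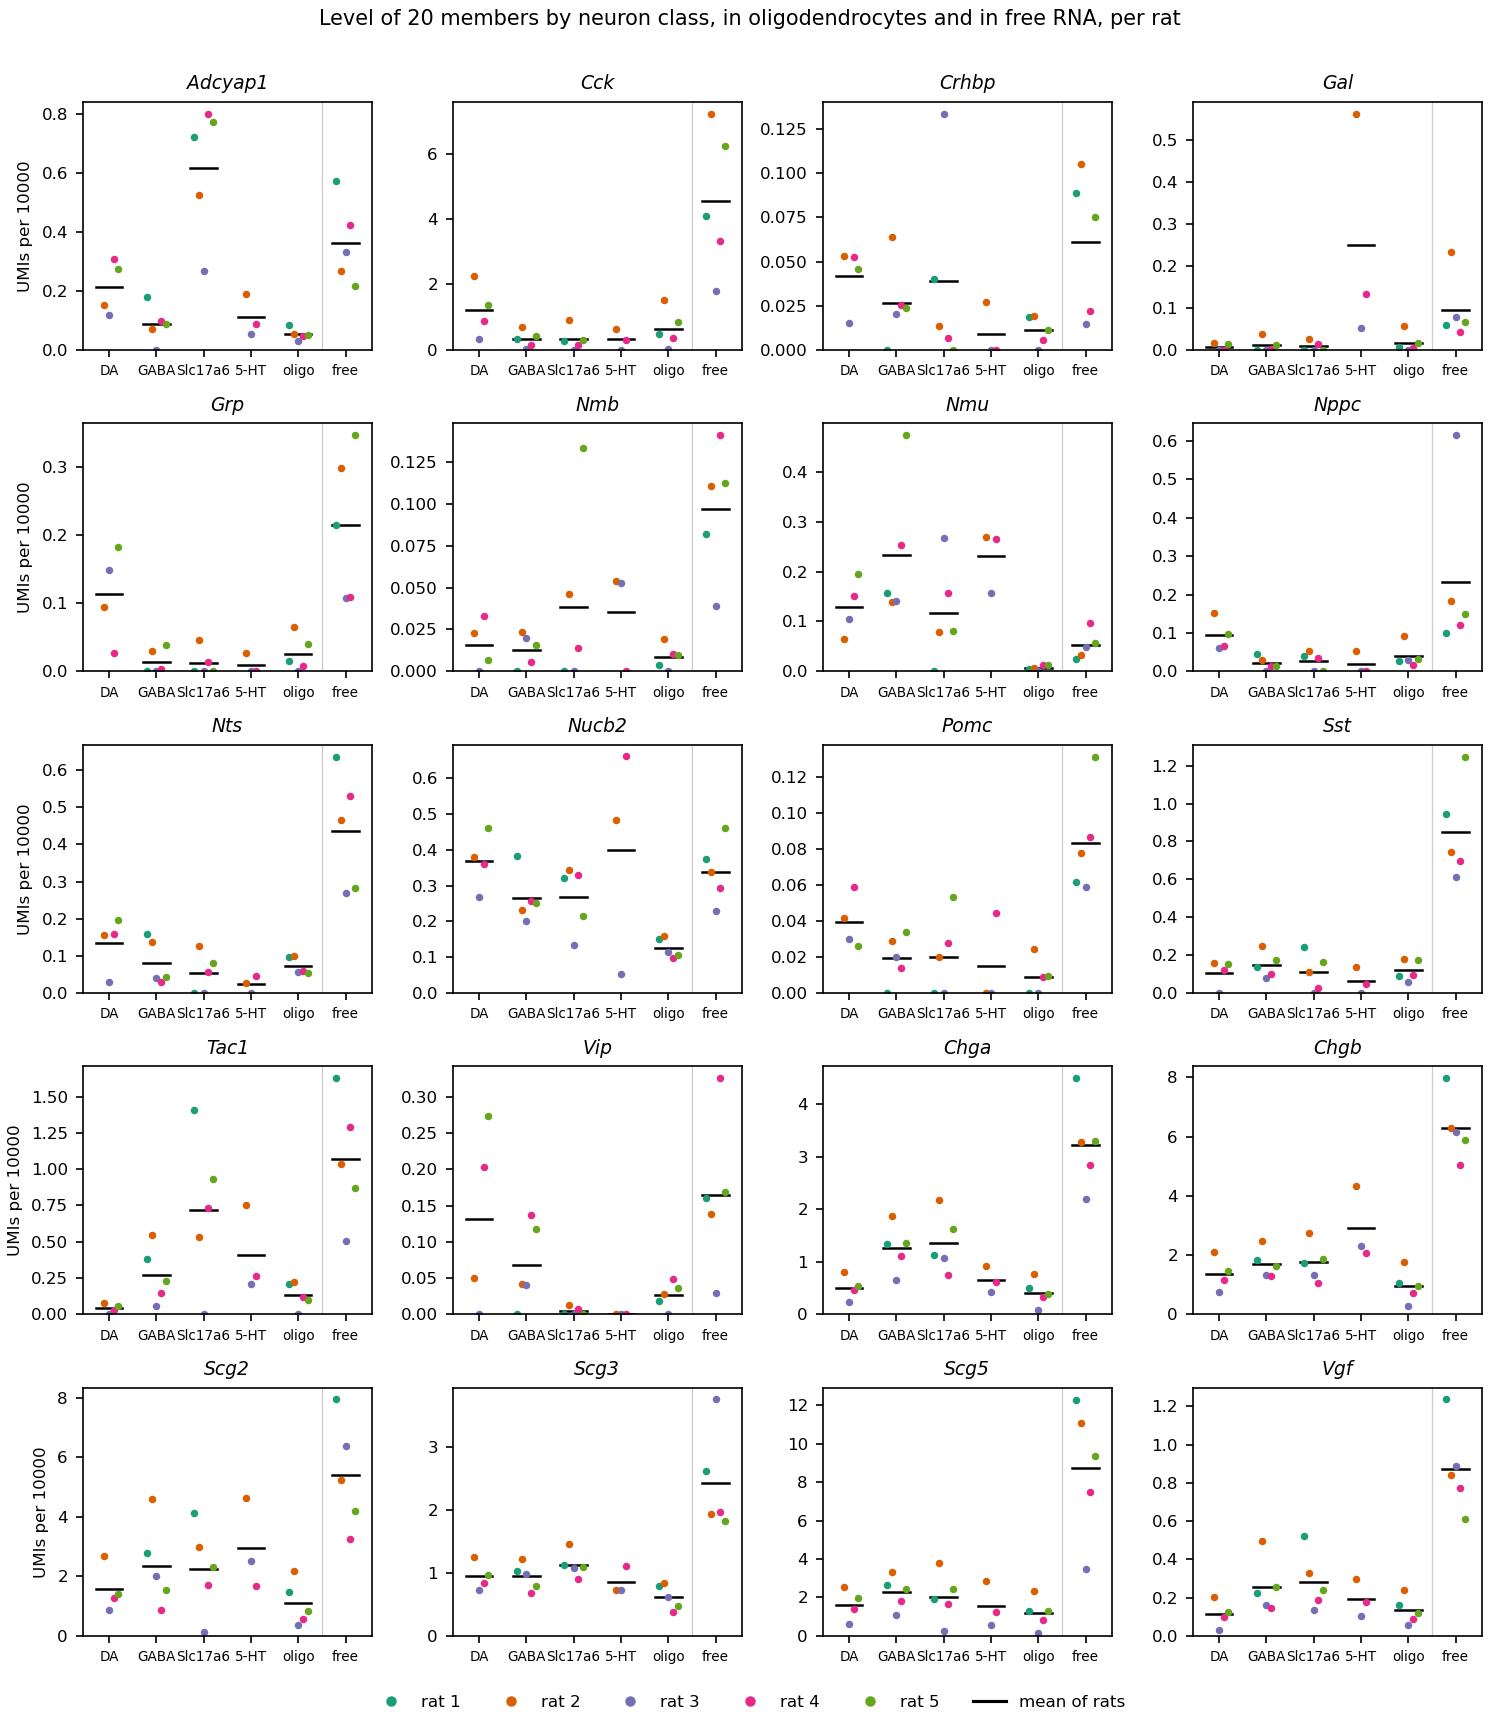
Level of the 20 members with at least 50 neuronal UMIs, in UMIs per 10000, in 4 neuron classes (DA, dopaminergic-like; 5-HT, serotonergic-like), oligodendrocytes and free RNA, with 1 point per rat having at least 20 nuclei of the class and a bar at the mean. Cck stands out in DA, Adcyap1 in Slc17a6 and Gal in 5-HT neurons, while the members other than Adcyap1, Gal, Nmu and Nucb2 have their highest mean in free RNA.

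The share of nuclei with a UMI depends on depth, so each nucleus was also thinned to 1000 UMIs, which every kept nucleus had. Median depths were 6358 UMIs in dopaminergic-like, 6785 in GABAergic-like, 7027.5 in Slc17a6 and 4421 in serotonergic-like neurons, and 2859.5 in oligodendrocytes. A Cck UMI was found in 10.6% of thinned dopaminergic-like nuclei (exact binomial 95% interval 8.72% to 12.7%; 45.4% unthinned), beside 9.22% of oligodendrocytes (8.62% to 9.85%; 22.5% unthinned). These pooled shares mix rats that gave different parts of each group. Within rats 2, 3, 4 and 5 the thinned share was 18.5%, 1.89%, 7.10% and 15.1% in dopaminergic-like nuclei against 16.0%, 0.391%, 2.99% and 9.80% in oligodendrocytes. It was thus higher in dopaminergic-like nuclei in each of the 4 rats, by amounts smaller than the spread between rats, and this difference was not tested.
Adcyap1 was found in 7.06% of thinned Slc17a6 nuclei (4.96% to 9.68%; 29.8% unthinned) and in 0.442% of oligodendrocytes (0.313% to 0.606%; 1.59% unthinned). Tac1 was found in 6.85% of thinned Slc17a6 nuclei (4.79% to 9.45%; 24.2% unthinned) and in 1.46% of oligodendrocytes (1.22% to 1.74%; 4.78% unthinned). In dopaminergic-like nuclei the thinned Tac1 share of 0.420% (0.115% to 1.07%; 3.36% unthinned) was under the pooled share of oligodendrocytes. Rat by rat it was lower in rats 2 and 5, 0% in both groups in rat 3, and 1.29% against 1.10% in rat 4.
Nmu was found in 2.55% of thinned GABAergic-like nuclei (1.93% to 3.30%; 13.9% unthinned) and in 0.105% of oligodendrocytes (0.0479% to 0.199%; 0.314% unthinned). Gal was found in 3.66% of thinned serotonergic-like nuclei (1.35% to 7.79%; 11.0% unthinned) and in 0.233% of oligodendrocytes (0.142% to 0.359%; 0.779% unthinned). Of the 5 genes given so far, Adcyap1, Tac1, Nmu and Gal thus had a class whose pooled interval lay above that of oligodendrocytes. Rat by rat, the class was higher in 5 of 5 rats for Adcyap1, 4 of 5 for Tac1, 4 of 5 for Nmu and 2 of 3 for Gal, and in the other rat of the last 3 both shares were 0%. They were not the only such members. The interval of Vip in GABAergic-like nuclei (0.603% to 1.48%) lay above that of oligodendrocytes (0.207% to 0.456%). So did that of Grp in dopaminergic-like nuclei (0.578% to 2.06% against 0.284% to 0.565%) and, barely, of Crhbp in GABAergic-like nuclei (0.288% to 0.969% against 0.0976% to 0.287%). All these intervals cover counting error only, since nuclei of 1 rat are not independent replicates.

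A few nuclei held many UMIs of a peptide. For Vip, 9 of the 952 dopaminergic-like nuclei had 3 or more UMIs, and they held 76 of the 86 Vip UMIs of the class (88.4%), with up to 22 in 1 nucleus. They came from rats 2, 4 and 5 (2, 5 and 2 nuclei). Of the 8602 oligodendrocytes 0 had 3 or more Vip UMIs, which allows a share of nuclei with that many UMIs of up to 0.0349%. In these 9 nuclei Th was at 2.80 and Slc6a3, the dopamine transporter gene, at 2.42 UMIs per 10000, against 6.30 and 8.02 in the 934 dopaminergic-like nuclei with no Vip UMI, at median depths of 9491 and 6306.5 UMIs. The lower Th and Slc6a3 are levels over 9 nuclei and were not tested.
In GABAergic-like neurons the Vip UMIs were more spread, with 12 of 2158 nuclei at 3 or more, holding 41 of 125 UMIs, and at most 5 in 1 nucleus. Nts was likewise gathered, in dopaminergic-like and in unnamed neurons. At 3 or more UMIs were 8 dopaminergic-like nuclei, holding 43 of the 97 UMIs of their class and up to 14 in 1 nucleus, and 13 unnamed neurons, holding 50 of 84 (59.5%) and up to 9. The others were 3 GABAergic-like nuclei, 2 Slc17a6 nuclei and 1 oligodendrocyte. Th in the 8 dopaminergic-like nuclei was at 8.89 UMIs per 10000, above the 6.13 of the 902 such nuclei with none, at median depths of 12462 and 6100.5 UMIs.
Cck reached 3 or more UMIs in 132 dopaminergic-like nuclei (13.9%), in 32 GABAergic-like nuclei (1.48%) and in 53 oligodendrocytes (0.616%). Rat 2 gave 92 of the 132 and rat 3 gave 0. These counts are unthinned, and the median depth of oligodendrocytes was 2859.5 UMIs against 6358 and 6785 in these classes, so the counts in oligodendrocytes are not matched for depth. Thinned to 1000 UMIs, 1.16% of dopaminergic-like nuclei (0.578% to 2.06%) and 0.709% of oligodendrocytes (0.543% to 0.910%) had 2 or more Cck UMIs, with overlapping intervals.
Tac1 reached 3 or more UMIs in 54 GABAergic-like, 33 Slc17a6 and 8 serotonergic-like nuclei, with up to 15 in 1 nucleus, in 0 of the 952 dopaminergic-like nuclei and in 3 oligodendrocytes. Rat 2 gave 41 of the 54 GABAergic-like nuclei. Sst reached it in 21 GABAergic-like nuclei, with up to 10 UMIs, in 2 dopaminergic-like nuclei and in 1 oligodendrocyte. Adcyap1 reached it in 24 Slc17a6 nuclei and 19 unnamed neurons, with up to 8 UMIs. Nmu reached it in 11 GABAergic-like nuclei (0.510%), 4 dopaminergic-like nuclei (0.420%), 1 Slc17a6 nucleus and 3 unnamed neurons, so its rich nuclei were about as frequent in the first as in the second class. In GABAergic-like neurons the class sums of Sst were 0.63 ± 0.26 higher on the log2 scale and did not pass (adjusted p = 0.135).

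**Figure D4:**
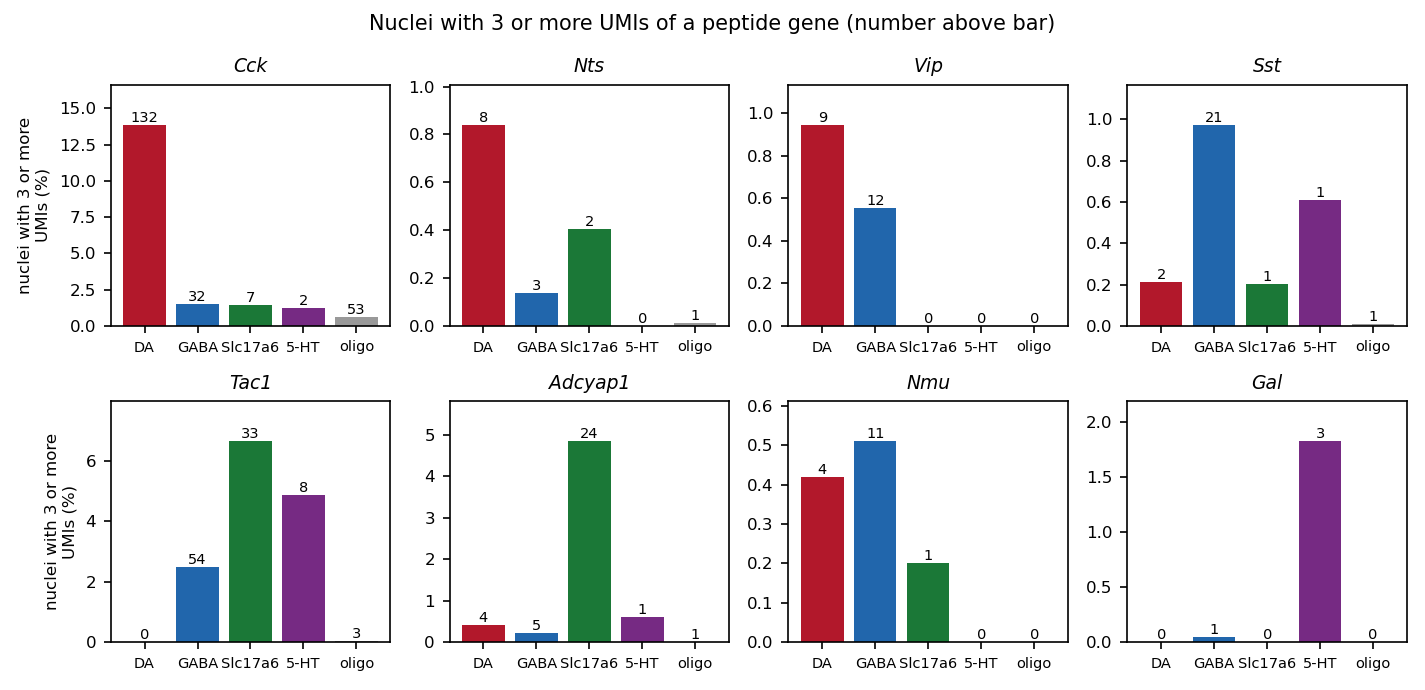
Percent of nuclei with 3 or more UMIs of 8 peptide genes in 4 neuron classes and oligodendrocytes, over all 5 rats, with the number of nuclei above each bar and no error bars, since nuclei are not replicates. Such nuclei were found for Cck mostly in dopaminergic-like neurons (132 nuclei), for Tac1 in 6.65% of Slc17a6, 4.88% of serotonergic-like and 2.50% of GABAergic-like nuclei, and for Gal in 3 serotonergic-like nuclei and 1 GABAergic-like nucleus.

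Neurons were further divided into sub-clusters, made without the members, of which 29 held at least 30 nuclei. The sub-cluster with the highest level of a member is a description, and for 7 of the 20 members with at least 50 neuronal UMIs it rested on 1 rat with 10 or more nuclei. The ranks use levels pooled over rats, and of the 13 members with more such rats 4 (Cck, Sst, Vgf and Vip) had the same sub-cluster highest in each of them. The highest sub-cluster was GABAergic-like for 9 members, serotonergic-like for 3, dopaminergic-like for 2, Slc17a6 for 2 and unnamed for 4. Of the 29 sub-clusters themselves 13 were GABAergic-like, 1 serotonergic-like, 3 dopaminergic-like, 3 Slc17a6 and 9 unnamed. At a finer resolution of 2 the highest sub-cluster was the same for 16 of the 20 members and another for Crhbp, Grp, Nts and Scg3.
Cck was highest in a dopaminergic-like sub-cluster led by Tmem207, Slc6a3 and Drd2, the dopamine D2 receptor gene, where 77.4% of 230 nuclei had a UMI. It was at 2.41, 1.37 and 1.65 UMIs per 10000 there in rats 2, 4 and 5, and at 2.14, 0.704 and 1.19 in the next, a dopaminergic-like sub-cluster led by Col24a1 and Aldh1a1. The first exceeded the second in each of the 3 rats. Grp was highest in the dopaminergic-like sub-cluster of rat 3 (0.151) and in the one led by Col24a1 and Aldh1a1 (0.148, with 37.7% of neuronal Grp UMIs). At resolution 2 Grp was highest in a dopaminergic-like sub-cluster led by Raver2 and Aldh1a1, at 0.320.
Vip was highest in a GABAergic-like sub-cluster led by Sox6 and Pdgfd, at 0.318, 0.468 and 0.836 UMIs per 10000 in rats 2, 4 and 5. These 262 nuclei, 4.74% of neurons, held 44.4% of the neuronal Vip UMIs, and the dopaminergic-like sub-cluster led by Col24a1 and Aldh1a1 held another 37.2%. The 9 dopaminergic-like nuclei with 3 or more Vip UMIs were all among the 407 nuclei of the latter and held 76 of its 83 Vip UMIs, so that its level rests on those 9. In the GABAergic-like sub-cluster 12 such nuclei held 41 of 99.
Sst was highest in a small GABAergic-like sub-cluster led by Penk, the enkephalin precursor gene, where 43.1% of 51 nuclei had a UMI. It was at 1.93 and 0.747 UMIs per 10000 there in rats 2 and 5, beside 0.240 in the next sub-cluster. Nmu was highest in the largest GABAergic-like sub-cluster, 768 nuclei led by Npas1 and Glra1, at 0.147, 0.208, 0.339 and 0.571 UMIs per 10000 in rats 1, 2, 4 and 5, and 36.3% of the neuronal Nmu UMIs were in it.
Tac1 was highest in a GABAergic-like sub-cluster led by Nox4 and Meis2, at 1.56, 0.129 and 0.781 UMIs per 10000 in rats 2, 4 and 5, of which rat 2 gave 216 of the 297 nuclei. The next was a Slc17a6 sub-cluster led by Pdzrn3 and containing Lmx1a among its leading genes, at 2.14, 1.03, 0.967 and 0.951 in rats 1, 2, 4 and 5. The pooled order of these sub-clusters thus held in rat 2 and was the other way in rats 4 and 5. Adcyap1 was highest in an unnamed sub-cluster led by Adgrv1 and Colec12, left unnamed because it held dopaminergic markers beside GABA or glutamate genes (Th at 3.12 and Slc17a6 at 1.67 UMIs per 10000), where 52.7% of 93 nuclei had a UMI, at 0.693, 1.15 and 1.5 UMIs per 10000 in rats 2, 4 and 5. It was followed by the Slc17a6 sub-cluster led by Angpt1 and Bdnf, the brain-derived neurotrophic factor gene, at 0.883.
Crhbp was highest in a GABAergic-like sub-cluster led by Pax3 (0.362, of which rat 2 gave 123 of 140 nuclei). It was close behind in one led by Slc26a7 and Reln, at 0.465, 0.275, 0.323 and 0.417 UMIs per 10000 in rats 1, 2, 4 and 5. This one held 38.9% of the neuronal Crhbp UMIs and was unnamed by the same rule (Th at 1.77 and Slc17a6 at 1.15). Its GABA genes were higher, at 5.39 UMIs per 10000, where the sub-cluster led by Adgrv1 and Colec12 had 1.12. At resolution 2 the order turned, and an unnamed sub-cluster led by Slc26a7 was highest for Crhbp, at 0.435. The unnamed sub-cluster led by Slc26a7 and Reln was also highest for Nts (0.298), but at resolution 2 Nts was highest in the dopaminergic-like sub-cluster led by Raver2 and Aldh1a1 (0.407), with 0.379 in the unnamed one. Scg3 moved likewise, from a GABAergic-like sub-cluster led by Epyc (1.70) to a Slc17a6 one led by Ttc29 (1.69). Nppc was highest in a pair of unnamed sub-clusters that were each of 1 rat, at 0.707 in rat 3 and 0.594 in rat 2. The highest granin levels followed single rats as well. Scg2 was highest in the Pax3 sub-cluster (6.57 pooled and 7.15 in rat 2, the rat with 10 or more of its nuclei). Chga and Scg5 were highest in a Slc17a6 sub-cluster led by Ttc29, at 2.76 and 4.56 in rat 2, which gave 139 of its 191 nuclei, but at 1.11 and 0.279 in rat 3, where other sub-clusters were higher. Vgf was highest in a GABAergic-like one led by Pax5 and Nfib, at 1.23 and 0.880 in rats 2 and 5. Chgb was highest in the serotonergic-like one, at 4.32, 2.31, 2.08 and 4.89 in rats 2 to 5, and led in each of these rats but rat 4.

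**Figure D5:**
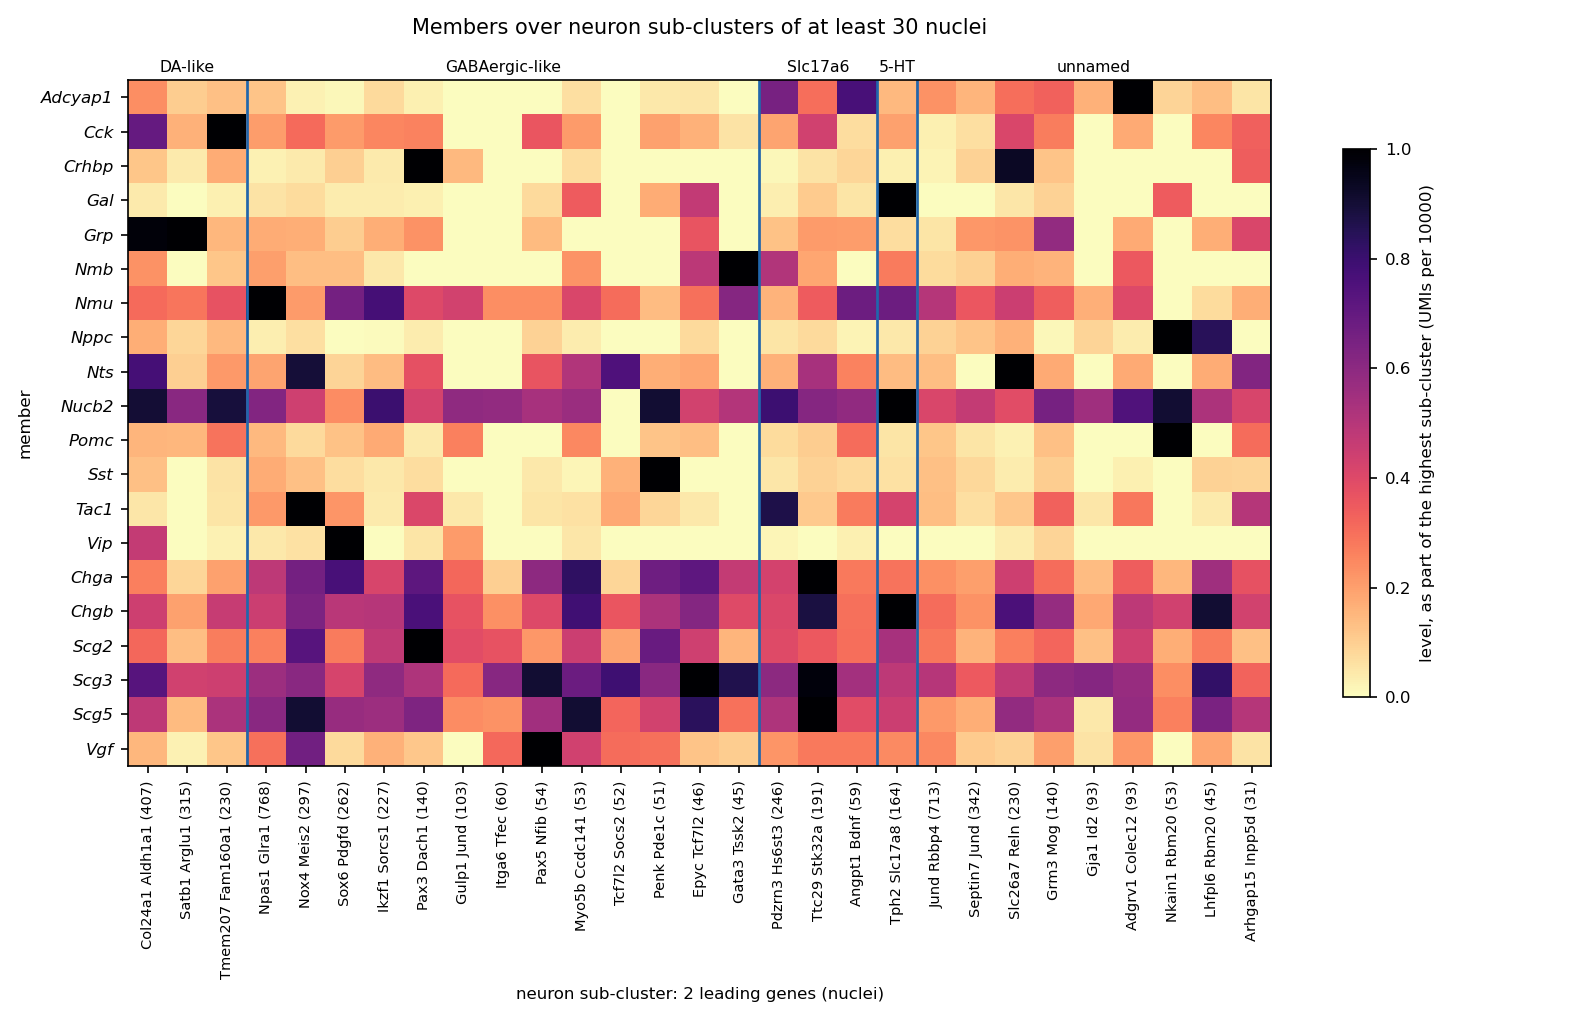
Level of 20 members (rows) in the 29 neuron sub-clusters of at least 30 nuclei (columns, with 2 leading genes and the number of nuclei), as a part of each member's highest sub-cluster from 0 to 1. Sst is dark in 1 column, led by Penk, whereas Scg3 and Nucb2 are spread over many columns.

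The 15 members under 50 UMIs in all neurons were counted only. Npy and Oxt, the neuropeptide Y and oxytocin genes, had 0 UMIs among the 33334344 of the 5527 neurons, which allows a level of up to 0.00090 UMIs per 10000 and a share of nuclei with a UMI of up to 0.0543%, which is no limit on nuclei that express the gene. The other 13 had 4 to 41 UMIs. Cartpt had 41, Tac3, neurokinin B, had 37, Avp, vasopressin, and Crh, corticotropin-releasing hormone, had 33 each, and Hcrt, the orexin precursor gene, had 27. Agrp and Calca had 23 each, Calcb had 14, Trh 13, Pmch 12, Ucn 11, Rln3 6 and Npw 4. Of these, Cartpt and Crh passed the filter in free RNA, at log2 differences of 2.41 and 2.04, and the remaining ones were tested in no comparison.

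Of 16 genes that cut, amidate or release peptides, chosen as a list beside the members, 15 were tested, and 12 were higher and 1 (Hid1) lower in neurons than in non-neuronal nuclei, at a median log2 difference of 1.92. Of all genes tested 34.3% were higher and 34.4% lower in that comparison. Syt7, a calcium sensor of slow release, was 4.21 ± 0.17 higher on the log2 scale, Cadps2, a priming factor of dense-core vesicles, 4.10 ± 0.18, Ptprn2, a membrane protein of these vesicles, 3.81 ± 0.13 and Cadps 3.61 ± 0.12. The convertase genes Pcsk2 and Pcsk1 were 3.21 ± 0.11 and 1.97 ± 0.27 higher. Each of these 6 differences was larger than that of any granin. The granins were higher in free RNA than in nuclei (log2 differences of 1.38 to 2.25), whereas these 6 genes were at -1.10 (Cadps) to -0.11 (Pcsk1) there. Free RNA was not taken out of the differences, and its part in them was not tested, so the sizes do not rank the genes by how neuronal they are.
Among classes, Cadps2 was 3.20 ± 0.22 higher in dopaminergic-like, 0.80 ± 0.22 higher in GABAergic-like and 3.99 lower (-3.99 ± 0.28) in Slc17a6 neurons, on the log2 scale. Syt7 was higher in dopaminergic-like neurons (0.74 ± 0.13) and lower in Slc17a6 neurons (-0.58 ± 0.15), and Syt4 was higher in dopaminergic-like neurons (0.50 ± 0.15). No other gene of the list passed between classes in edgeR. Of the 15 genes 3 were thus higher in dopaminergic-like neurons (9.54% of all genes), 1 was higher in GABAergic-like neurons (6.29%) and 2 were lower in Slc17a6 neurons (2.97%). In free RNA 6 of the 15 were higher, led by Rab3a (2.44 ± 0.32), and 3 lower, beside 30.6% and 30.6% of all genes.

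Of 37 peptide receptor genes 35 were found and 20 tested between neurons and non-neuronal nuclei, where 13 were higher and 5 lower, at a median of 1.42, beside 34.3% and 34.4% of all genes. Hcrtr2, an orexin receptor, was 4.71 ± 0.20, Tacr1, the substance P receptor, 3.93 ± 0.30 and Tacr3, the neurokinin B receptor, 3.63 ± 0.21 higher on the log2 scale, whereas Calcrl, a receptor of calcitonin gene-related peptide and adrenomedullin, was lower (-3.30 ± 0.16).
Of the 10 tested between classes, 2 were higher and 3 lower in dopaminergic-like neurons (9.54% and 8.15% of all genes), 3 were lower in GABAergic-like neurons (5.90%) and 2 were higher and 1 lower in Slc17a6 neurons (2.97% each way). Tacr3 was higher (2.34 ± 0.15) and Tacr1 lower (-1.71 ± 0.29) in dopaminergic-like neurons. In Slc17a6 neurons, where Tac1 was high, Tacr1 was higher (1.63 ± 0.26) and Tacr3 lower (-1.62 ± 0.20). Mchr1, a receptor of melanin-concentrating hormone, was higher in dopaminergic-like neurons (1.17 ± 0.28), and Trhr, the receptor of thyrotropin-releasing hormone, was lower there (-1.78 ± 0.24) and higher in Slc17a6 neurons (1.79 ± 0.22). Adcyap1r1, the PACAP receptor, was lower in dopaminergic-like neurons (-0.59 ± 0.20). In GABAergic-like neurons 3 receptors were lower, Hcrtr2 (-1.13 ± 0.22), Vipr2 (-0.74 ± 0.23) and Tacr3 (-0.72 ± 0.16). In free RNA 7 of the 16 tested were higher, led by Ntsr2 (2.14 ± 0.40), and 4 lower, beside 30.6% and 30.6% of all genes.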

How the data were processed

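Nuclei of 5 frozen VTA samples were profiled with the 10x Genomics 3′ assay (v3.1), and each library was taken as 1 rat. The authors made the deposited values, raw UMI counts per gene and barcode with all barcodes kept, with Cell Ranger (version 8.0.1 in the submitters' processing notes, version 4 in the file headers). The genome build is not given in the sources used here. The authors' later steps (removal of ambient RNA and doublets, integration) were not in these counts. Cort and Pthlh were not analysed here.

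Barcodes with at least 1000 UMIs, 201 to 4999 genes and under 5% mitochondrial UMIs were kept. Scrublet scores removed the top 0.8% of nuclei per 1000 nuclei in a library, since its own threshold marked 18 nuclei. Clusters (scanpy 1.11.5, Leiden, 2000 variable genes, 30 components, 20 neighbours, resolution 1) were named from marker lists, and neurons were clustered again without the members. The thresholds that named sub-clusters were set after the clusters were seen. The members and lists were chosen with earlier results of these data known.

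Counts were summed per rat and group and tested with edgeR 4.0.16 (quasi-likelihood, TMM scaling, filterByExpr, Benjamini-Hochberg adjustment over all genes tested), with rat as a block in each fit. SE is the log2 fold change over the root of F, and edgeR raises p to at least that of counting error. Groups of the same rat deviated together from their group means, with correlations from 0.125 to 0.809 over the pairs of groups compared. With this block, a p-value is set against how the difference within a rat varied over the 5 rats, not against the spread of levels between rats. DESeq2 1.42.0, other filters, scalings and typings and leaving out each rat were the alternatives. Leaving out sums of under 20 nuclei, comparing free RNA with named nuclei only and leaving neurons of sub-clusters with glial markers out were added after seeing the data. On simulated data with 200 genes changed, the neuron comparison (13742 genes) recovered 26% of 2-fold and 96% of 4-fold changes, and the dopaminergic-like one (10835 genes) recovered 34% and 97%. Levels are UMIs per 10000 UMIs of the group. A 3′ tag count does not allow levels of different genes to be compared. Rat values are given for up to 8 called members per comparison, those with the largest changes, at least 50 UMIs and the same direction in each rat, and for genes that a result turns on. For the lists of processing and receptor genes up to 4 called genes were chosen by size, and the others named were chosen after their values were seen. Shares have exact (Clopper-Pearson) 95% intervals. A count of 0 was read against a floor of 3 counts.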

Additional observations from a re-analysis of the deposited data

Results flagged for a closer look

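Of 120 sets of rat values of the members, 5 (4.17%) held 1 rat far from the others, where chance gives about 1 in 20. Gal was at 0.03777 UMIs per 10000 in the GABAergic-like neurons of rat 2 (26 UMIs), above the 0 to 0.01047 of the other 4 rats. Gal was also high in the free RNA of rat 2, at 0.233 against 0.04343 to 0.07817. Nppc was at 0.09093 in the oligodendrocytes of rat 2, against 0.0173 to 0.0322, and at 0.6156 in the free RNA of rat 3, against 0.09933 to 0.1831. Pomc was at 0.0 in the neurons of rat 1, of which there were 107, against 0.02301 to 0.02909 in the other rats. Over the 938757 UMIs of these neurons, a 0 read at the floor of 3 counts does not show a level below the other rats.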

How the results depend on the processing

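Of 836 recomputed member values, 766 kept their direction and their side of the threshold, 54 lost the call, 12 gained one and 4 turned. Those that turned were Vip in neurons (-0.50, nuclei typed by their own markers), Cck in neurons (0.26 with at least 2000 UMIs and 0.0078 with nuclei typed by their own markers) and Tac1 in Slc17a6 neurons (-0.54, components centred per library). The number of members higher in neurons, 11, was 7 with doublets kept, where Chgb, Scg5, Vgf and Vip were lost. In dopaminergic-like neurons the 3 became 6 with no maximum of genes, 6 with nuclei typed by their own markers, 6 with no filter and 1 with free RNA subtracted, where Cck, Nts and Vgf were not tested because too few counts were left. In GABAergic-like neurons the 3 became 5 with no maximum of genes, 1 with nuclei typed by their own markers, 6 with components centred per library and 6 with no filter. The cause of the other changes was not tested. Leaving out 1 rat at a time gave 10 to 12 members higher in neurons, 1 to 4 in dopaminergic-like, 2 to 3 in GABAergic-like, 2 to 3 in Slc17a6 neurons and 19 to 23 in free RNA.

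Pairing mattered, since the groups compared came from the same rats. With no replicate block, 5 members were higher in neurons, 1 in dopaminergic-like, 0 in GABAergic-like and 2 in Slc17a6 neurons and 20 in free RNA. Lower were 2 in dopaminergic-like, 1 in GABAergic-like and 0 in Slc17a6 neurons, where the block gave 3, 3 and 1. DESeq2 called 2 higher and 3 lower in dopaminergic-like, 2 and 3 in GABAergic-like and 3 and 1 in Slc17a6 neurons. The share of nuclei with a UMI moved with depth, since 57 of 60 shares moved unthinned. Rare peptides are limited by depth, and members under 50 neuronal UMIs, a chosen cut, were not placed in a class.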
